A study of Mus musculus with 4 samples.

Results

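The transcripts of 8 receptor genes were followed in natural killer (NK) cells of Tcf7 knock-out mice: the checkpoint receptor genes Lag3, Havcr2 and Pdcd1, the nectin-family receptor genes Tigit, Cd96, Cd226 and Crtam, and Cd160. They were chosen by their symbols, with earlier results of these data known. All 8 were found by Entrez gene number among the 26611 genes of the count table. Of the 8, 7 passed the filter on low counts, and Pdcd1 did not. The libraries came from 2 Tcf7 knock-out (KO) mice and 2 wild-type (WT) mice of the C57BL/6 background, each library from its own mouse. Tcf7 encodes Tcf-1, a DNA-binding factor of lymphoid cells, and the study asks for its role in NK cells. Spleen cells of both genotypes were sorted as negative for TCRbeta and positive for NK1.1, NKp46, CD11b and KLRG1, so NK cells without CD11b or KLRG1 were not sequenced. The age of the mice, how the Tcf7 allele was made and in which cells it is missing are not given in the sources used here. Library totals were 28254693 and 37384979 counts (KO) and 31860505 and 40175537 counts (WT). Tcf7 itself stood at 11.2 and 25.0 CPM in KO libraries, against 89.5 and 79.1 CPM in WT libraries (log2 fold change -2.22, SE 0.45, edgeR adjusted p = 1.00, DESeq2 adjusted p = 0.00216), and was lower but not absent in KO libraries. The unit CPM gives counts relative to library totals that were scaled by edgeR's trimmed mean of M-values (TMM).

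NK cells weigh activating against inhibitory signals at their surface before they kill or release cytokines. Inhibitory checkpoint receptors lower that response: LAG-3 binds MHC class II molecules and other ligands, TIM-3 (Havcr2) binds galectin 9 and related ligands, and PD-1 (Pdcd1) binds PD-L1 and PD-L2. TIGIT, CD96 and CD226 (DNAM-1) form a set of receptors that share the ligand PVR (CD155), in which CD226 activates and TIGIT inhibits. CD96 competes for the same ligand. CRTAM binds the nectin-like protein CADM1, and CD160 binds the herpesvirus entry mediator, encoded by Tnfrsf14.

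Promoter sequences are shown for Tigit and Cd96, which share a ligand and lie on the same chromosome and of which Tigit alone had KO and WT libraries that did not overlap. RefSeq's promoter table (build GRCm38.p6, the assembly also named mm10) had an entry for 5 of the 8 genes, with 6 entries in all, since Cd160 has a pair of start sites. Lag3, Cd226 and Crtam had none. The 250 bases before the annotated start site are given 5′ to 3′ on the gene's own strand, which is the minus strand for both genes. The Tigit start site of this entry lies inside the gene's annotated span. Capitals mark the letters CTTTGA or CTTTGT, or their reverse complements TCAAAG and ACAAAG, which are the core of the sequence that Tcf-1 and related factors bind.
Tigit, chr16:43664185-43664434: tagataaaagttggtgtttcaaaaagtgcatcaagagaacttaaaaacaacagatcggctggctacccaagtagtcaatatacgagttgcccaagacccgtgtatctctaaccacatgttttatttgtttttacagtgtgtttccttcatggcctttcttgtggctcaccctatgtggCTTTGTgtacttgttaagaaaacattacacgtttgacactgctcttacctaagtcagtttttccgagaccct
Cd96, chr16:46120249-46120498: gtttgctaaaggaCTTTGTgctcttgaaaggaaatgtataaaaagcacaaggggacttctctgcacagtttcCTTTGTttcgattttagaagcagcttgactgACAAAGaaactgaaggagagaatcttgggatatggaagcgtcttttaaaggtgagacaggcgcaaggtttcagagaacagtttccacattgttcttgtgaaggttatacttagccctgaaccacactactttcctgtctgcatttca
The Tigit window held CTTTGT once, 72 bases before the start site. The Cd96 window held the CTTTGT core 3 times, at 237, 178 and 147 bases before the start site, the last on the opposite strand. One of the Cd160 start sites had CTTTGA on each strand, at 232 and 92 bases before it, and its other start site, Havcr2 and Pdcd1 had none of these letters. Over all 32851 promoter entries, 27.6% held at least 1 match in the same window (13.8% for CTTTGA and 16.5% for CTTTGT). A match is a description of the letters and does not show binding.

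Among the 7 receptor genes tested, Lag3 had the largest fold change between the genotypes, with the higher level in KO cells. Lag3 (Entrez gene 16768; GRCm38 chromosome 6, 124904359 to 124912434, minus strand, 8 exons in its coding transcript of GENCODE M21) was counted 1287 and 1532 times in KO libraries, against 364 and 492 times in WT libraries. This corresponds to 43.9 and 42.5 CPM in KO cells and to 11.2 and 12.5 CPM in WT cells. Both KO libraries lay above both WT libraries, and libraries of the same genotype lay close together. Lag3 averaged 43.2 ± 0.981 CPM in KO cells and 11.9 ± 0.939 CPM in WT cells (SD, n = 2 each), a 3.64-fold difference. A mean level of at least that of Lag3 in KO cells was reached in KO cells by 36.4% of all genes tested. Over the 4 pairings of a KO with a WT library, the ratio ran between 3.39 and 3.92. Counting alone gave an error of 5.24% for the lowest of the 4 Lag3 counts.

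The log2 fold change of Lag3, KO over WT, was 1.86 (SE 0.22, 95% interval 1.28 to 2.44) in edgeR's quasi-likelihood test. Its edgeR unadjusted p was 5.96e-04, and 10 of the 12723 genes tested had a smaller one. An absolute log2 fold change at least as large was found in 1.65% of all genes tested. The edgeR p adjusted over all genes was 0.689. At an adjusted p under 0.05, edgeR called 0% of all genes tested and limma voom also called 0%, while 2.84% had an edgeR unadjusted p under 0.05 (1.7% higher and 1.14% lower in KO cells). DESeq2 called Lag3 higher in KO cells (log2 fold change 1.88, SE 0.31, adjusted p = 1.92e-06), where it called 0.377% of all genes higher. With KO library 1 left out the DESeq2 adjusted p of Lag3 was 0.0230, and with KO library 2 left out it was 0.0137. With WT library 1 or 2 left out it was 0.356 or 0.236, and Lag3 was no longer called. In edgeR the adjusted p was 0.0657 with KO library 1 left out and 0.0386 with KO library 2 left out, and it was 1.00 with either WT library left out. In bulk samples such as these, more cells with Lag3 transcripts and more Lag3 RNA per cell cannot be told apart.

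**Figure D1:**
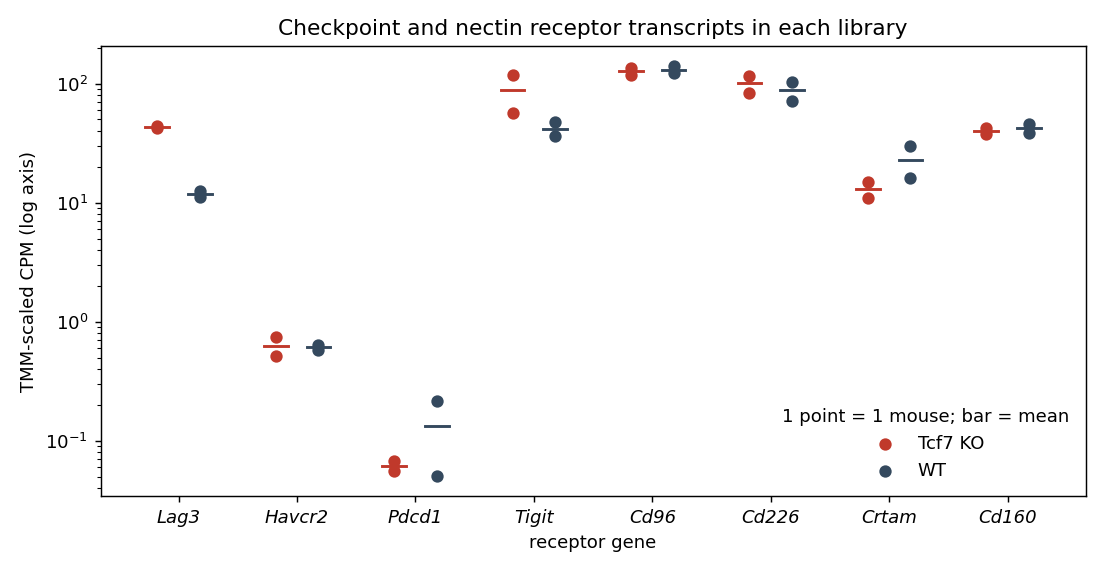
TMM-scaled CPM (log axis) of the 8 receptor genes in the 2 KO (red, left of each pair) and 2 WT (dark blue, right) libraries, where 1 point is 1 mouse and a bar is the mean. Lag3 sits at 42.5 to 43.9 CPM in KO and at 11.2 to 12.5 CPM in WT cells, while Cd96, Cd226 and Cd160 of both genotypes overlap.

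Of Tigit, Cd96 and Cd226, whose products share PVR, Tigit alone had KO and WT libraries that did not overlap. Tigit (chromosome 16, 43626137 to 43665125) stood at 57.0 and 118 CPM in KO libraries, against 36.2 and 47.2 CPM in WT libraries. Both KO values were above both WT values, but KO library 1 lay nearer to WT library 2 than to KO library 2. Tigit averaged 87.6 ± 43.3 CPM in KO and 41.7 ± 7.79 CPM in WT cells (SD, n = 2 each). In edgeR Tigit had a log2 fold change of 1.07 (SE 0.42, 95% interval -0.06 to 2.20, edgeR unadjusted p = 0.0579, edgeR adjusted p = 1.00, DESeq2 adjusted p = 1.00), so Tigit did not pass in either. Without KO library 2 the edgeR log2 fold change was 0.48, and without KO library 1 it was 1.50. With a block for the replicate number it was 0.99 (edgeR adjusted p = 0.0270), but the labels do not say that a number pairs mice. In RefSeq the span of Tigit overlaps Zbtb20 and Mir568 on the opposite strand, with 0 shared exon bases in GENCODE, and Zbtb20 stood at 1.02 and 3.74 CPM in KO and 1.85 and 4.81 CPM in WT libraries.

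Cd96 (chromosome 16, 46035652 to 46120248) stood at 134 and 119 CPM in KO libraries, against 139 and 122 CPM in WT libraries. The groups overlapped, and the log2 fold change was -0.05 with a 95% interval of -0.59 to 0.49. The activating receptor gene Cd226 (chromosome 18, 89176954 to 89272232) stood at 117 and 83.7 CPM in KO libraries, against 71.5 and 104 CPM in WT libraries. Its groups overlapped too, and the log2 fold change was 0.19 with a 95% interval of -0.62 to 1.01. Both intervals end below the Tigit value of 1.07, but the Tigit interval reaches into them, and the differences between these genes were not tested.

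Crtam (chromosome 9, 40972798 to 41004628), which encodes the receptor for CADM1, lay the other way. It stood at 11.0 and 15.0 CPM in KO libraries, against 29.9 and 16.0 CPM in WT libraries. Both KO values were below both WT values, but KO library 2 and WT library 2 were close. Crtam averaged 13.0 ± 2.81 CPM in KO and 22.9 ± 9.82 CPM in WT cells (SD, n = 2 each). In edgeR Crtam had a log2 fold change of -0.82 (SE 0.39, 95% interval -1.87 to 0.23, edgeR adjusted p = 1.00, DESeq2 adjusted p = 1.00), and without WT library 1 it was -0.31.

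Cd160 (chromosome 3, 96798763 to 96829351) stood at 42.2 and 37.9 CPM in KO libraries, against 46.1 and 38.2 CPM in WT libraries. The libraries of the genotypes overlapped, with a log2 fold change of -0.07 and a 95% interval of -0.67 to 0.53. Havcr2 (chromosome 11, 46454931 to 46481255) was counted only 15 and 27 times in KO and 19 and 25 times in WT libraries. That is 0.511 and 0.749 CPM in KO and 0.585 and 0.637 CPM in WT cells, and the 95% interval of its log2 fold change, -1.35 to 1.45, is too wide to show a difference at this depth. Pdcd1 (chromosome 1, 94038305 to 94052553) was counted 2 and 2 times in KO and 7 and 2 times in WT libraries, in 3 of the 4 libraries under the limit that a count of 0 allows (3 counts, or 0.0747 to 0.106 CPM). No fold is given for it. These limits cover counting error only.

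Of the 7 receptor genes tested, 3 had KO and WT libraries that did not overlap (Lag3 and Tigit higher, Crtam lower in KO cells), where 21.2% of all genes tested did so (9.64% higher and 11.6% lower in KO cells). DESeq2 called 1 of the 7, Lag3, where it called 0.558% of all genes tested. In edgeR 0 of the 7 were called, beside 0% of all genes tested. An edgeR unadjusted p under 0.05 was found for 1 of 7, beside 2.84% of all genes tested. The receptor genes were chosen with earlier results of these data known, so these counts are a description only. The median log2 fold change of the 7 was 0.05, beside -0.01 over all genes tested.

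**Figure D2:**
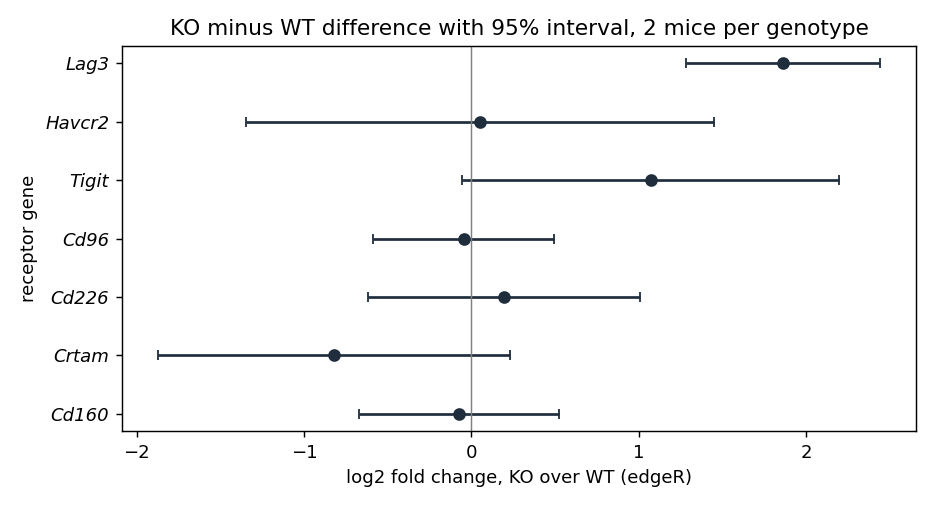
edgeR log2 fold change, KO over WT, of the 7 receptor genes tested (points), with 95% intervals (bars). Only the Lag3 interval, 1.28 to 2.44, lies wholly above 0, and the Tigit interval begins at -0.06.

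**Figure D3:**
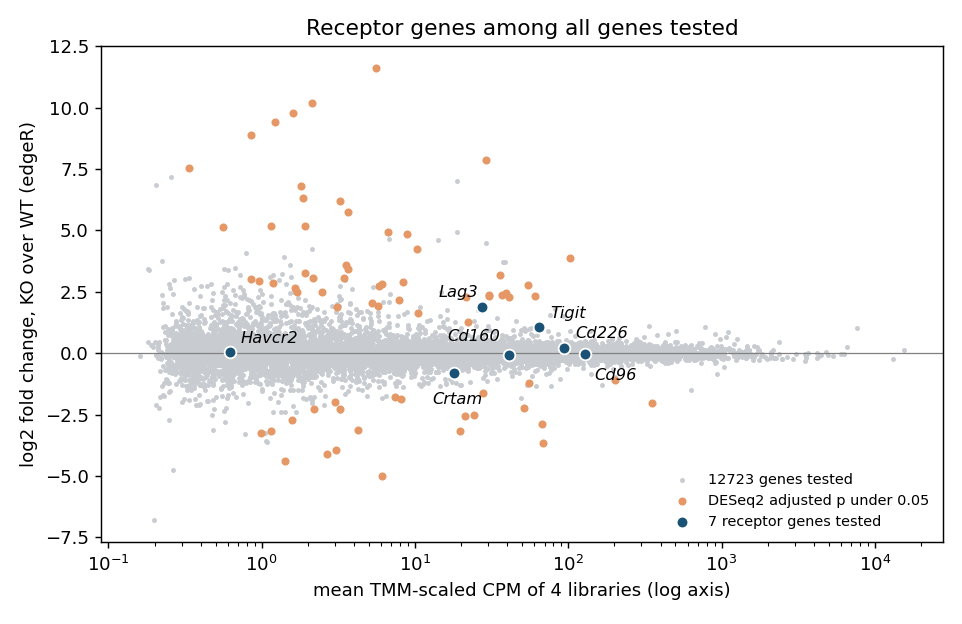
edgeR log2 fold change, KO over WT, against the mean TMM-scaled CPM of the 4 libraries (log axis) for the 12723 genes tested (grey), the 71 that DESeq2 called (orange) and the 7 receptor genes tested (blue, named). Lag3 lies among the called genes at 1.86, while Cd96, Cd160 and Cd226 lie near 0 at higher levels.

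Genes can be compared with each other only per length, so CPM was divided by the gene length of the deposited table in kilobases, giving RPKM. In KO cells the order was Tigit (91.0 ± 44.9 RPKM), Cd96 (58.0 ± 4.85 RPKM), Cd226 (40.3 ± 9.41 RPKM), Lag3 (21.6 ± 0.490 RPKM), Cd160 (15.2 ± 1.16 RPKM), Crtam (6.91 ± 1.50 RPKM), Havcr2 (0.231 ± 0.0616 RPKM) and Pdcd1 (0.0320 ± 0.00466 RPKM; SD, n = 2 each). In WT cells it was Cd96 (59.9 ± 5.66 RPKM), Tigit (43.3 ± 8.09 RPKM), Cd226 (35.2 ± 9.17 RPKM), Cd160 (16.0 ± 2.11 RPKM), Crtam (12.2 ± 5.23 RPKM), Lag3 (5.92 ± 0.469 RPKM), Havcr2 (0.224 ± 0.0135 RPKM) and Pdcd1 (0.0690 ± 0.0602 RPKM; SD, n = 2 each). Lag3 was the fourth of the 8 in KO cells, with both libraries above both Cd160 values, and the sixth in WT cells, with both libraries below both Crtam values. The orders of Tigit against Cd96 in KO cells, of Tigit against Cd226 in WT cells and of Cd160 against Crtam in WT cells did not hold in every pairing of libraries.

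Ratios of receptor genes within a library do not depend on the scaling between libraries. The per-length ratio of Lag3 to Cd96 was 0.356 and 0.389 in KO libraries, against 0.0874 and 0.112 in WT libraries. The ratio of Lag3 to Cd160 was 1.37 and 1.48 in KO libraries, against 0.321 and 0.432 in WT libraries, so Lag3 passed Cd160 in both KO libraries and in neither WT library. The ratio of Tigit to the activating receptor gene Cd226 was 1.26 and 3.65 in KO libraries, against 1.31 and 1.18 in WT libraries. The genotypes overlapped in this ratio, which was high in KO library 2 alone. The ratio of Tigit to Crtam was 10.1 and 15.4 in KO libraries, against 2.36 and 5.75 in WT libraries, with no overlap. The ratio of Cd160 to Cd96 stayed between 0.259 and 0.273 in all 4 libraries. Lag3 made up 10.4% and 8.33% of the summed RPKM of the 8 genes in KO libraries and 3.30% and 3.55% in WT libraries. The sum itself was 212 and 255 RPKM in KO libraries, against 170 and 176 RPKM in WT libraries.

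**Figure D4:**
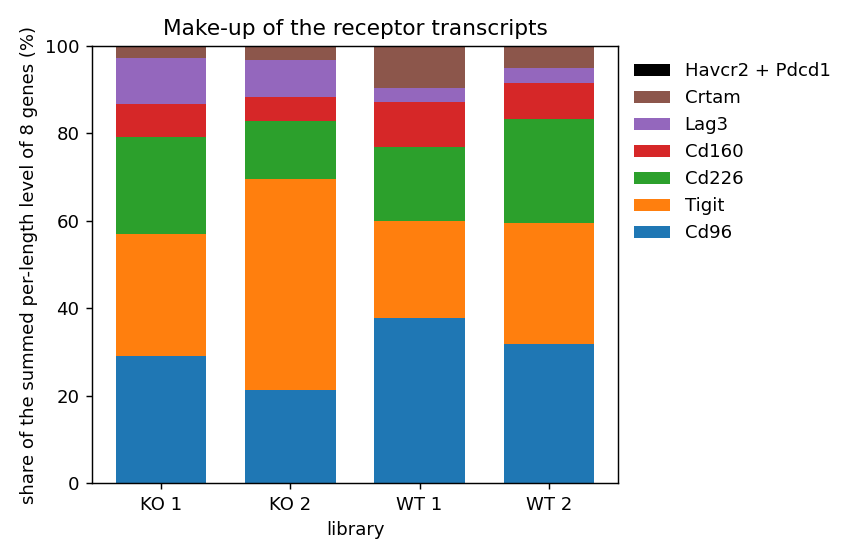
Share (%) of each receptor gene in the summed per-length level (RPKM) of the 8 genes, 1 bar per library, KO on the left and WT on the right. The Lag3 share is 10.4% and 8.33% in KO libraries and 3.30% and 3.55% in WT libraries, and Tigit takes 48.2% in KO library 2; Havcr2 and Pdcd1 are too low to be seen.

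No gene of the ligands of these receptors passed the test. Of 18 ligand genes, 13 passed the filter; Nectin1, Nectin2, Nectin4, Fgl1 and Clec4g did not. None of the 13 was called by edgeR, DESeq2 or limma voom, which called 0%, 0.558% and 0% of all genes tested. An edgeR unadjusted p under 0.05 was found for 0 of 13, beside 2.84% of all genes tested. KO and WT libraries did not overlap for 3 of 13, beside 21.2% of all genes tested. The median log2 fold change of the 13 was 0.57, beside -0.01 over all genes tested, with 9 above 0 and 4 below. The most abundant were Lgals9, which encodes galectin 9 (185 and 238 CPM in KO, 225 and 229 CPM in WT libraries), and Hmgb1 (57.4 and 57.6 CPM in KO, 59.0 and 55.2 CPM in WT libraries). The next 4 ligand genes were chosen after their values were seen. The MHC class II gene H2-Aa, whose product is part of the LAG-3 ligand, stood at 42.2 and 8.32 CPM in KO libraries, against 22.9 and 7.18 CPM in WT libraries, and was high in the libraries numbered 1 of both genotypes. Pvr, which encodes the ligand shared by TIGIT, CD96 and CD226, stood at 5.08 and 5.83 CPM in KO libraries, against 3.60 and 7.28 CPM in WT libraries, and the groups overlapped. Cd274 (PD-L1) stood at 26.6 and 25.1 CPM in KO and 41.3 and 31.4 CPM in WT libraries (log2 fold change -0.49, SE 0.24), and Ceacam1 at 1.09 and 0.555 CPM in KO and 0.369 and 0.178 CPM in WT libraries (1.58, SE 0.71).

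Signalling partners of the receptors and the proteases that shed LAG-3 showed no call. All 20 genes of this list were tested. Of them, edgeR, DESeq2 and limma voom called 0, where they called 0%, 0.558% and 0% of all genes tested. At an edgeR unadjusted p under 0.05 there were 0 of 20, beside 2.84% of all genes tested. For 3 of 20 the KO and WT libraries did not overlap, beside 21.2% of all genes tested. The median log2 fold change of the 20 was -0.06, with 4 above 0 and 16 below. The most abundant were Itgb2 and Itgal, the chains of the integrin LFA-1 that works with CD226. Itgb2 stood at 3383 and 3227 CPM in KO and 3784 and 3753 CPM in WT libraries, and Itgal at 1835 and 3505 CPM in KO and 2583 and 3720 CPM in WT libraries.

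Regulators that have been linked to checkpoint receptor genes in T cells showed no call either. Of 18 genes, 17 were tested (Tox2 was too low). Of the 17, edgeR, DESeq2 and limma voom called 0, where they called 0%, 0.558% and 0% of all genes tested. Again 0 had an edgeR unadjusted p under 0.05, beside 2.84% of all genes tested. For 3 of 17 the KO and WT libraries did not overlap, beside 21.2% of all genes tested. The median log2 fold change of the 17 was -0.03, with 8 above 0 and 9 below. The most abundant were the T-box factors of NK cell maturation. Tbx21 stood at 868 and 1243 CPM in KO and 869 and 1172 CPM in WT libraries. Eomes stood at 354 and 508 CPM in KO and 488 and 500.3 CPM in WT libraries.

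Among 17 other inhibitory and activation-induced receptors, 16 were tested and Ctla4 was too low. DESeq2 called 1, Klrc1, which encodes the inhibitory receptor NKG2A, as lower in KO cells, where it called 0.181% of all genes lower. Klrc1 stood at 183 and 95.7 CPM in KO libraries, against 517 and 610 CPM in WT libraries (log2 fold change -2.02, SE 0.38, edgeR adjusted p = 1.00, DESeq2 adjusted p = 0.00191). The DESeq2 adjusted p of Klrc1 was 2.45e-06 with KO library 1 left out, 0.0200 with KO library 2, 0.160 with WT library 1 and 0.499 with WT library 2. Where genes of low counts were kept, edgeR also called Klrc1 (adjusted p = 0.00956). The list's median was 0.31, with 12 above 0 and 4 below. An edgeR unadjusted p under 0.05 was found for 3 of 16, beside 2.84% of all genes tested.

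**Figure D5:**
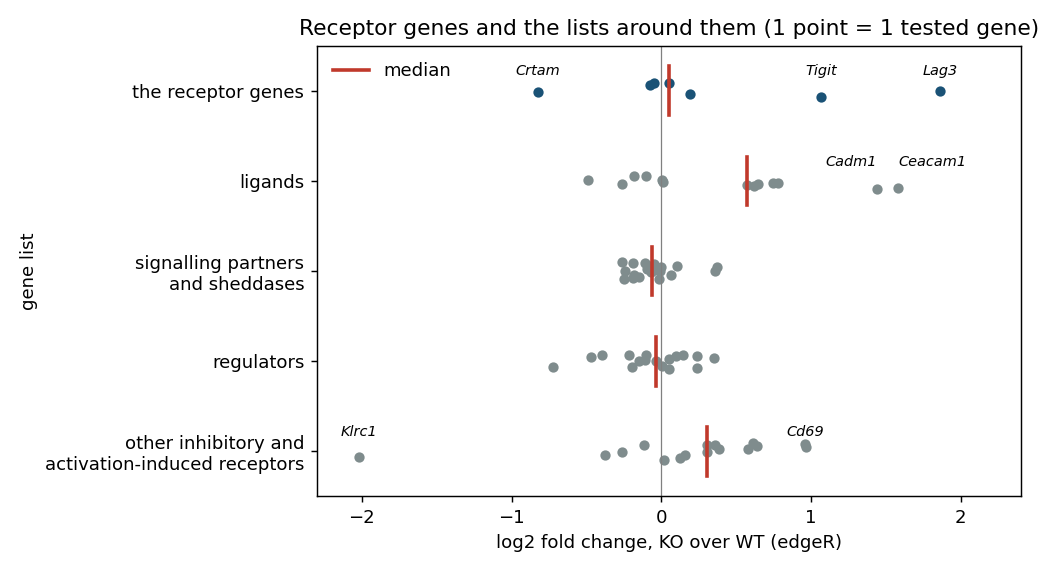
edgeR log2 fold change, KO over WT, of every tested gene (points) of the receptor genes and of 4 lists around them, with the median of each list (red bars). Lag3 at 1.86 lies above every other point, and Klrc1 at -2.02 lies below every other point.

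None of the tested neighbours of the receptor genes passed the test. Lag3 lies between Cd4 and Ptms on chromosome 6. Ptms, 1241 bases away, stood at 226 and 381 CPM in KO libraries, against 202 and 260 CPM in WT libraries (log2 fold change 0.39, SE 0.33). Cd4, which encodes the T helper cell co-receptor and lies 16112 bases away, stood at 0.443 and 0.277 CPM in KO libraries, against 0.492 and 0.382 CPM in WT libraries. The next genes outward, Gpr162 and A230083G16Rik, had at most 6 counts in any library. Over the pair of nearest annotated genes on each side of the 8 receptor genes, 8 of 32 neighbours were tested, with log2 fold changes of -0.28 to 0.39. Of these 8, edgeR, DESeq2 and limma voom called 0, where they called 0%, 0.558% and 0% of all genes tested. An edgeR unadjusted p under 0.05 was found for 0 of 8, beside 2.84% of all genes tested. Libraries did not overlap for 0 of 8, beside 21.2% of all genes tested.

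The genes whose profile over the 4 libraries was nearest to that of Lag3 were Nebl, Ptpn3, Fam174b, Cerox1 and Abcb9. They were taken from 9287 named genes with a mean of at least 5 CPM, by the distance between log2 CPM profiles centred on their means, which was 0.114 to 0.566. Nebl, which encodes an actin-binding protein, stood at 8.87 and 9.43 CPM in KO libraries, against 2.22 and 2.60 CPM in WT libraries. Over the 5 genes the log2 fold change was 1.43 to 2.29. Abcb9, which encodes a lysosomal peptide transporter, stood at 63.6 and 72.9 CPM in KO libraries, against 11.2 and 16.8 CPM in WT libraries. Likeness over 4 libraries of 2 genotypes is a description only.

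Genes of the proteins used in the sort were abundant in all 4 libraries: Ncr1 (NKp46) stood at 1611 and 1510 CPM in KO and 1732 and 1557 CPM in WT libraries, and Klrb1c (NK1.1) at 4485 and 3837 CPM in KO and 4767 and 3595 CPM in WT libraries. T cells and plasmacytoid dendritic cells can also carry LAG-3. Cd3e, of T cells, stood at 0.239 and 0.610 CPM in KO and 0.400 and 0.458 CPM in WT libraries, and 6 of 12 T cell markers were under 1 CPM in each library. The 12 T cell markers summed to 267 and 134 CPM in KO and 237 and 188 CPM in WT libraries, mostly from Trbc2, Trac and Cd28. DESeq2 called 1 of the 11 tested higher and 1 lower in KO cells, where it called 0.377% and 0.181% of all genes tested. In edgeR 0 were called and 3 had an unadjusted p under 0.05, where 2.84% of all genes tested did. The higher one, Trac, the constant region of the T cell receptor alpha chain, stood at 94.0 and 36.1 CPM in KO libraries, against 5.88 and 8.30 CPM in WT libraries (log2 fold change 3.20, SE 0.57, edgeR adjusted p = 1.00, DESeq2 adjusted p = 7.04e-06, at most 0.00819 with any library left out). Trbc2, the constant region of the beta chain, stood at 120 and 65.0 CPM in KO libraries, against 121 and 96.9 CPM in WT libraries, and Cd28 at 39.9 and 23.1 CPM in KO libraries, against 88.9 and 64.7 CPM in WT libraries. The lower one, Icos, which encodes a co-stimulatory receptor, stood at 2.80 and 3.80 CPM in KO libraries, against 10.6 and 12.3 CPM in WT libraries (log2 fold change -1.79, SE 0.30, edgeR adjusted p = 1.00, DESeq2 adjusted p = 0.00377), and DESeq2 did not call it with any 1 library left out (adjusted p of 0.0867 to 1.00). The part of T cell transcripts in the Lag3 result was not tested. Siglech, of plasmacytoid dendritic cells, was at 0.443 and 0 CPM in KO and 0.400 and 0 CPM in WT libraries, with 0 counts in 2 of the 4 libraries. The 8 markers of that type summed to 805 and 1250 CPM in KO and 873 and 1104 CPM in WT libraries, mostly from Irf8, which NK cells also express. All 8 were tested, and edgeR, DESeq2 and limma voom called 0, where they called 0%, 0.558% and 0% of all genes tested. Of the 8, 1 had an edgeR unadjusted p under 0.05, where 2.84% of all genes tested did. This was Cox6a2, at 6.68 and 2.64 CPM in KO and 1.78 and 1.12 CPM in WT libraries (log2 fold change 1.68, SE 0.61). The part of plasmacytoid dendritic cell transcripts in the Lag3 result was not tested.

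DESeq2 called 3 of 6 erythroid markers and 2 of 10 myeloid and neutrophil markers higher in KO cells, and 0 lower. It called 0.377% of all genes tested higher. In edgeR 0 of either list passed, with 5 of 6 and 4 of 10 at an unadjusted p under 0.05. Over all genes tested this share was 2.84%. Markers named one by one here were chosen after their values were seen. All 6 erythroid markers tested had a log2 fold change above 0, and the libraries of 5 did not overlap, while those of Klf1 did. Libraries that did not overlap, with KO higher, were found for 9.64% of all genes tested. Their sum was 196 and 122 CPM in KO libraries, against 36.0 and 28.0 CPM in WT libraries. Of 12 myeloid and neutrophil markers, 10 were tested and 9 were above 0, and the sum was 2606 and 2018 CPM in KO libraries, against 2155 and 1807 CPM in WT libraries, mostly from Ly6c2 and Itgax, which NK cells also express. These sums of the genotypes overlapped. Of the 10 tested, 6 had both KO libraries above both WT libraries and 1 had both below, where 9.64% and 11.6% of all genes tested did so. S100a8 stood at 118 and 22.4 CPM in KO libraries, against 9.94 and 0.687 CPM in WT libraries. S100a9 stood at 122 and 22.3 CPM in KO libraries, against 10.5 and 0.535 CPM in WT libraries. DESeq2 called neither S100a8 nor S100a9. The 3 erythroid markers called were the globin genes Hba-a1, Hba-a2 and Hbb-bs, with log2 fold changes of 2.36, 2.35 and 2.28. With WT library 2 left out DESeq2 called none of these 3 (adjusted p of 0.102, 0.0679 and 0.592), and Hbb-bs was not called with KO library 1 left out either (0.343). The neutrophil granule genes Mpo and Elane were the 2 others called, and with KO library 1 left out DESeq2 called neither (adjusted p of 0.0777 for Mpo and 1.00 for Elane). Elane stood at 6.24 and 0.915 CPM in KO libraries, against 0.0615 and 0 CPM in WT libraries. Mpo stood at 11.3 and 2.97 CPM in KO libraries, against 0.246 and 0.0255 CPM in WT libraries. Hba-a2 stood at 70.1 and 53.5 CPM in KO libraries, against 13.3 and 10.9 CPM in WT libraries. Hbb-bs stood at 49.1 and 22.7 CPM in KO libraries, against 9.05 and 5.70 CPM in WT libraries. The part of these cells in the Lag3 result was not tested. The 8 B cell markers summed to 447 and 222 CPM in KO and 244 and 170 CPM in WT libraries, with a median log2 fold change of 0.04 over 7 tested. Of these 7, edgeR, DESeq2 and limma voom called 0, where they called 0%, 0.558% and 0% of all genes tested. An edgeR unadjusted p under 0.05 was found for 0 of 7, beside 2.84% of all genes tested. Igkc had the highest log2 fold change of the 7 (1.80, SE 0.92), at 215 and 38.4 CPM in KO and 50.1 and 22.5 CPM in WT libraries, which overlapped. The 7 markers of other innate lymphoid cells in the table summed to 65.5 and 129 CPM in KO and 87.8 and 134 CPM in WT libraries. DESeq2 called 1 of the 6 tested, Il7r, as lower in KO cells, where it called 0.181% of all genes tested lower. In edgeR 0 were called and 1 had an unadjusted p under 0.05, where 2.84% of all genes tested did. Il7r, which encodes the interleukin-7 receptor alpha chain, stood at 0.648 and 1.08 CPM in KO libraries, against 9.38 and 5.80 CPM in WT libraries (log2 fold change -3.12, SE 0.48, edgeR adjusted p = 1.00, DESeq2 adjusted p = 1.68e-05, and 0.386 with WT library 1 left out). Rora stood at 0.648 and 1.69 CPM in KO libraries, against 2.34 and 5.65 CPM in WT libraries, and did not pass (DESeq2 adjusted p = 0.952). The part of these transcripts in the Lag3 result was not tested.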

How the data were processed

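The authors deposited raw read counts for each gene and sample, beside a gene length, per the file headers. The submitters' processing notes name featureCounts and mm10. Aligner, versions and strand setting are not given in the sources used here. Per the labels' protocols, TruSeq libraries were made from total RNA and read as paired ends on a NextSeq. Of 26611 Entrez gene numbers, 25275 matched a symbol in RefSeq's GRCm38.p6 table, which is the mm10 assembly and gave the positions.

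Genes were kept with filterByExpr (minimum count 10), leaving 12723. KO was set against WT in R 4.3.3 with edgeR 4.0.16 (robust quasi-likelihood fit, TMM scaling, no term but genotype), p-values were adjusted by Benjamini and Hochberg's method over all genes tested, and the threshold was 0.05. SEs were derived from each fold change and its F statistic. DESeq2 1.42.0, voom of limma 3.58.1, other scalings and filters, a replicate block and leaving out each library were alternatives, and DESeq2 without each library was added after seeing the data. All tests are two-sided. With 2 mice per genotype, p-values rest on the spread shared across genes. The tests were tested on simulated data first.

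The receptor genes and all lists were chosen with earlier results of these data known. Named genes were all 8 receptor genes, Tcf7, members of the 4 lists around the receptors that passed in edgeR or DESeq2 or else the 2 most abundant, the 5 nearest profiles to Lag3 and the 2 nearest genes on each of its sides, with exceptions said. Cell type markers were not under this rule: those that passed are named, and others were chosen after their values were seen.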

Additional observations from a re-analysis of the deposited data

How the results depend on the processing

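The Lag3 difference kept its direction in every alternative, and its call depended on the method. Its log2 fold change was 1.88 with no filter on low counts (edgeR adjusted p = 0.00528), 1.88 in DESeq2 and 1.86 with the replicate block (0.000236), all past the threshold. It was not past the threshold with DESeq2 size factors in edgeR (0.679), with library size only (0.800), with a minimum of 5 CPM in 2 libraries (0.646) or in limma voom (0.770). Without each library it ran between 1.78 and 1.96; such fits leave 1 sample in a genotype, assumed to vary like the other. The number of genes called was 35 with no filter, 71 in DESeq2, 221 with the replicate block, 0 to 53 without each library in edgeR and 34 to 74 in DESeq2. The causes were not tested.

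The block used the replicate numbers of the labels, which do not say that a number pairs mice. Over 12723 genes the deviations of same-numbered libraries had a correlation of 0.728. With the replicate block Tigit had a log2 fold change of 0.99 (edgeR adjusted p = 0.0270), Cd69 0.99 (0.0169), Klrc1 -2.09 (0.0329) and Crtam -0.76 (0.456). Icos, Il7r, Rora, Mpo, Elane, Hba-a1, Hba-a2 and Hbb-bs also passed in edgeR with the block, at adjusted p of at most 0.0345. So did the 5 genes nearest to Lag3 in profile, at most 0.0233. These 5 were picked for their likeness to Lag3 in the same libraries, so their pass followed from the choice and adds no support. None of the 5 passed in the main edgeR fit, and Cerox1 did not pass in DESeq2 (adjusted p = 0.0527).

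These differences, none of them called, turned sign when a library was left out, with ranges over edgeR and DESeq2: Havcr2 (-0.24 to 0.31), Cd96 (-0.13 to 0.079), Cd226 (-0.065 to 0.51), Cd160 (-0.19 to 0.094), Lgals9 (-0.28 to 0.081), Hmgb1 (-0.025 to 0.084), H2-Aa (-0.85 to 1.84), Itgal (-0.76 to 0.17), Tbx21 (-0.21 to 0.30), Eomes (-0.46 to 0.056), Ptms (-0.012 to 0.74) and Cd4 (-0.65 to 0.056). The share of genes without overlap was 17.9% to 20.9% under other scalings and filters. Depth limits Havcr2 and Pdcd1.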

Other observations

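Chosen after their values were seen, 4 of the 16 tested genes in the list of other inhibitory and activation-induced receptors are described here. They are the 4 of 16 that lay higher in both KO libraries than in both WT libraries, so this trait followed from the choice. Over all genes tested, 9.64% did so. Klrc1 was the 1 of 16 that lay lower in both KO libraries (log2 fold change -2.02), where 11.6% of all genes tested did so. The libraries of Tnfrsf18 and Tnfrsf4 overlapped (0.13 and 0.31). Cd69, an early activation marker, stood at 42.1 and 38.4 CPM in KO libraries, against 25.3 and 16.1 CPM in WT libraries (log2 fold change 0.96, SE 0.30). Tnfrsf9, which encodes the co-stimulator 4-1BB, stood at 259 and 255 CPM in KO libraries, against 187 and 149 CPM in WT libraries (0.61, SE 0.21). Entpd1, which encodes the ectonucleotidase CD39, stood at 294 and 470.4 CPM in KO libraries, against 205 and 286 CPM in WT libraries (0.64, SE 0.33). Klrg1, whose product was used in the sort, stood at 1410 and 915 CPM in KO libraries, against 817 and 740 CPM in WT libraries (0.58, SE 0.28). None of these 4 passed in DESeq2 or in edgeR without a replicate block (main edgeR fit, adjusted p = 1.00 each). With the block, Cd69 passed in edgeR (adjusted p = 0.0169), while Entpd1 (0.0508), Tnfrsf9 (0.0523) and Klrg1 (0.182) did not. For Cd69 the adjusted p was 0.778 in DESeq2 and 0.698 in edgeR with no filter on low counts.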
